A study of Mus musculus with 4 samples.

Results

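The genes described here make, sense, move and store cholesterol: 28 genes chosen by name for their place in the pathway, of which 27 were found on the arrays under a current or former symbol, among 37008 genes and transcripts in all. The rule that chose them uses names and no measured value, and it was set with earlier results of these data known. RNA levels were measured in RAW264.7, a mouse macrophage cell line, on 4 one-colour Agilent arrays, 1 for each group. The groups were wild-type cells untreated, wild-type cells with lipopolysaccharide (LPS), Mfp2-/- cells untreated and Mfp2-/- cells with LPS. LPS, from the outer wall of bacteria, is a standard macrophage stimulus that acts through Toll-like receptor 4; the sources used here state neither its dose nor its time. Mfp2 is the peroxisomal enzyme of fatty acid and bile acid intermediate oxidation encoded by Hsd17b4. The sources used here do not state how the knockout was made or whether its cells are 1 clone.

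Cholesterol is built in the cytosol and endoplasmic reticulum from acetyl-CoA, through mevalonate and isoprenoids to squalene, which is closed to lanosterol and then trimmed and reduced to cholesterol. When sterols are scarce, SCAP escorts the SREBP precursor from the endoplasmic reticulum to the Golgi, where it is cut, and the released SREBP-2 switches on most genes of the pathway. INSIG proteins hold SCAP back when sterols are plentiful. Macrophages also take in much cholesterol with lipoproteins and dead cells, release it from lysosomes through NPC2 and NPC1, and store the excess as esters made by SOAT1.

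Values are scaled log2 levels: the log2 of the array's processed signal minus that array's 75th percentile, so a level of 0 is as bright as that percentile. Each gene is given by 1 probe. All 27 genes were above background on all 4 arrays, so each of their differences is measured on both sides. There was 1 array per group, so differences between 2 arrays are unreplicated and carry no p-value. A difference of 1 or more in size, which is 2-fold, is counted as a call, and 1.5-fold is given beside it. The scanner software's own error for a difference between 2 arrays was between 0.204 and 0.210 log2 for these genes, and the spread of replicate spots gave between 0.0543 and 0.0898. Neither holds the variation between cultures.

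Across the series, between 47.4% and 49.7% of non-control spots were well above background and 0 were saturated. The 4 arrays shared 1 slide and 1 scan time and differed in position, so position and group cannot be told apart. Hsd17b4, the targeted gene, stood at 3.65 in wild type untreated, 3.18 in wild type with LPS, 2.78 in Mfp2-/- untreated and 2.0 in Mfp2-/- with LPS. It was thus lower in the knockout by 0.86 and 1.17 but above background on every array, and whether its probe lies in the altered part of the gene is not known here. Of 8 macrophage markers, 8 were above background on all 4 arrays. Among markers of T cells, B cells, fibroblasts, epithelial cells and hepatocytes, 2 of 15 were above background on all 4, both in the T cell list (Cd3e and Cd4), while Cd3g was below background on all 4. Whether other cells have a part in the values below was not tested.

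The stretch of DNA before the gene is shown for 6 genes, those on which the results turn. Each is the 250 bases before the gene's start on the gene's own strand, from RefSeq's GRCm38.p6 annotation, in which 23 of the 28 genes were found, with 29 start sites. Capitals mark CCAAT, the letters bound by the factor NF-Y, on either strand (read as ATTGG on the other), and in Hmgcs1 also TCACCCCAC, a match to the sterol regulatory element letters TCACNCCAC.
Hmgcs1 (chr13:119690101-119690350, + strand): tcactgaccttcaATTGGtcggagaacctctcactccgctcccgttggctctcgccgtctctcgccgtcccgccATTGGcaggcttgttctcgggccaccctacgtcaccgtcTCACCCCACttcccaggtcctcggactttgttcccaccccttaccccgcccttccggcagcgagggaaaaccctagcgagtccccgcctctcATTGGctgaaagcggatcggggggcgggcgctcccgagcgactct
Mvk (chr5:114444019-114444268, + strand): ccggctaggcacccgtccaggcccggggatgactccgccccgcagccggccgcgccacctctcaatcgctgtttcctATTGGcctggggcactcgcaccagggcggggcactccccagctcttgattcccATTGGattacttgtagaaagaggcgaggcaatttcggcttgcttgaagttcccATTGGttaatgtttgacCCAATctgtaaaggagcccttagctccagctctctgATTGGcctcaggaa
Tm7sf2 (chr19:6067851-6068100, - strand): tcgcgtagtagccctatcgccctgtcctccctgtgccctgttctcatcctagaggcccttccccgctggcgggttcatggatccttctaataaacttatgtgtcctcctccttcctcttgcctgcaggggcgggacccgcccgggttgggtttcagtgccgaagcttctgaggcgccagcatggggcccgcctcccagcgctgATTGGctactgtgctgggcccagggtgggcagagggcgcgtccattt
Acss2 (chr2:155517793-155518042, + strand): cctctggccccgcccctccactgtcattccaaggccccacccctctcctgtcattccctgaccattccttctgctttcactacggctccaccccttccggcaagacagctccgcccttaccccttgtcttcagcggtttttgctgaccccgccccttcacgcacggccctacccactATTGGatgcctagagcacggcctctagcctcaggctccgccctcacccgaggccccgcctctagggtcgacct
Lbr (chr1:181842402-181842651, - strand): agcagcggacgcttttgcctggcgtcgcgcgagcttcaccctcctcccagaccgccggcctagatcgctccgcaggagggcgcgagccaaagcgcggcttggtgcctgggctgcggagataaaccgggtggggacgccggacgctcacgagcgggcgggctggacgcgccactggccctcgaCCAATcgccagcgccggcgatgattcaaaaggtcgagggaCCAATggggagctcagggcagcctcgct
Npc2 (chr12:84773113-84773362, - strand): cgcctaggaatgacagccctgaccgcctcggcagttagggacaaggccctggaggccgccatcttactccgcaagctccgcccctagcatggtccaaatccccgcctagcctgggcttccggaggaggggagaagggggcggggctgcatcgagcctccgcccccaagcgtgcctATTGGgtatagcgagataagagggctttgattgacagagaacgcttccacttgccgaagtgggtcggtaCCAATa

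The CCAAT letters occurred 5 times before Mvk, 3 times before Hmgcs1, 2 times each before Lbr and Npc2 and 1 time each before Tm7sf2 and Acss2. In Hmgcs1 the match to the sterol regulatory element began 137 bases before the start, between CCAAT matches. Searched on both strands, CCAAT was present in at least 1 window of 21 of the 23 genes, all but Acat2 and Scap. Counted by start site it was in 21 of 29 windows (72.4%), against 33.8% of all 32851 windows of the same length. The letters GGGCGG, read by Sp1, were in 23 of 29 windows (79.3%), against 32.7%, and the letters of no motif searched contain those of another. The member windows also held more G and C, with a median of 62.4% against 52.4%. CACGTG, the E-box, was in 5 of 29 windows (17.2%), against 6.02%. TCACNCCAC was in 1 of 29 (3.45%), against 1.05%. These are matches of letters, not measured sites. The genes shown include one that was higher with LPS (Npc2), one that was lower in both genotypes (Lbr) and ones whose response differed between the genotypes.

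The first question was what LPS does to these genes in wild-type cells. Most differed by less than 1.5-fold between the untreated and LPS arrays, and the others were in different steps of the pathway. By more than the software error of a difference, 9 of 27 lay above 0 and 9 below. Npc2, whose product binds cholesterol inside the lysosome and hands it to NPC1, was 3.03-fold higher with LPS. Lbr, a sterol reductase of the middle of the pathway that is also a receptor for lamin in the nuclear envelope, was 2.11-fold lower. These were the 1 gene of 27 at least 2-fold higher and the 1 at least 2-fold lower, against 9.71% and 8.58% of all 18200 genes compared. At 1.5-fold, 3 were higher and 4 lower, against 17.7% and 17.5%. The median of the 27 differences was -0.04, and that of the 16087 genes measured on both arrays was 0.02. Above 0 lay 13 of 27, against 50.8% of all genes.

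In Mfp2-/- cells the LPS response of the same genes lay lower. Acss2, Tm7sf2 and Stard4 were at least 2-fold lower, 3 of 27 against 12.5% of 18388 genes, and Npc2 was at least 2-fold higher, 1 of 27 against 11.0%. At 1.5-fold, 7 were lower, against 22.3%, and 3 higher, against 20.2%, so the shares lay near or under those of all genes. The median was -0.32, while that of 15961 measured genes was 0.04. Below 0 lay 17 of 27, and 10 were above 0, against 49.6% of all genes. Both responses had the same sign in 24 of 27 genes, 10 of them above 0 and 14 below, and no array is shared between the responses. Among 15516 genes above background on all 4 arrays that share was 85.0%, close to the 88.9% of the 27.

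**Figure D1:**
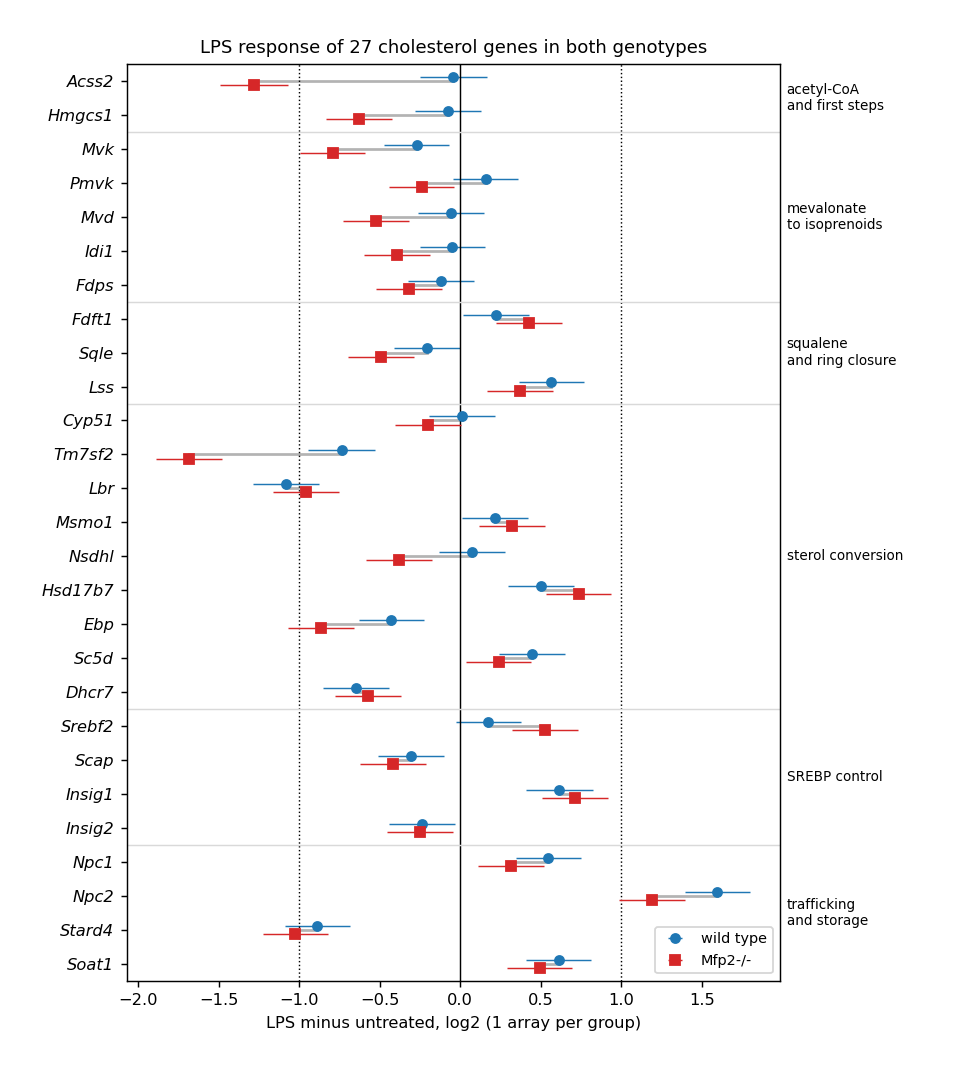
LPS minus untreated for each of the 27 genes (horizontal axis, log2; vertical axis, genes grouped by step), with wild type as circles and Mfp2-/- as squares, 1 array per group. Bars are the scanner software's error of a difference, dotted lines mark 2-fold, and the square lies to the left of the circle in 20 of the 27 genes.

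At the start of the pathway, 2 genes were measured, and the LPS response of both lay lower in Mfp2-/- than in wild type. Acss2 makes acetyl-CoA from acetate in the cytosol and nucleus and is itself a target of SREBP. Its scaled level was 0.15 in wild type untreated, 0.11 in wild type with LPS, 0.54 in Mfp2-/- untreated and -0.74 in Mfp2-/- with LPS. The lowest level was in Mfp2-/- cells with LPS and the other 3 were above 0. Its response was thus -0.04 in wild type and -1.28 in Mfp2-/-, a difference of the responses of -1.24 with a software error of 0.289. Its probe lies on chromosome 2, 155388385 to 155388444 in mm9, the build the files use. A second Acss2 probe above background on all arrays gave -0.13 and -0.24, a difference of -0.11, so the difference rests on 1 of 2 probes that name the same transcript. Hmgcs1, which condenses acetoacetyl-CoA and acetyl-CoA to HMG-CoA, stood at 4.63 and 4.55 in wild type without and with LPS. In Mfp2-/- it stood at 4.82 and 4.19, again lowest with LPS, and the responses were -0.08 and -0.63. Its second probe gave -0.15 and -1.03, the same direction in both genotypes. That probe is dim: it stood at -3.73 in Mfp2-/- with LPS, where the lowest level well above background was -3.94. Acat2, the thiolase before Hmgcs1, has no probe under its own name. A probe that lists the accessions of both Acat2 and its relative Acat3 gave responses of -0.33 in wild type and -0.83 in Mfp2-/-, and the RNAs of the pair cannot be told apart on it.

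The enzymes from mevalonate to farnesyl diphosphate showed the same order in each of the 5 genes: the response in Mfp2-/- lay below that in wild type. Mevalonate kinase, Mvk, had levels of 3.92 and 3.65 in wild type without and with LPS, and of 4.41 and 3.62 in Mfp2-/-. On this probe the knockout was high without LPS and level with wild type with it, and the responses were -0.27 and -0.79. Its second probe had responses of 0.06 and -0.19, and knockout minus wild type of -0.04 without and -0.29 with LPS, so it showed neither the high untreated knockout nor the level pair. With probes averaged the untreated difference was 0.23 in place of 0.49. Pmvk, the next kinase, went from 4.24 to 4.40 in wild type and from 4.76 to 4.52 in Mfp2-/-, with responses of 0.16 and -0.24. A second Pmvk probe gave -0.07 and -0.40. Mvd, the decarboxylase that makes isopentenyl diphosphate, went from 2.19 to 2.14 in wild type and from 2.69 to 2.17 in Mfp2-/-. Its responses were -0.06 and -0.52, and as on the reported probe of Mvk the untreated knockout was the highest of the 4 arrays. Idi1, the isomerase of isopentenyl diphosphate, had responses of -0.05 and -0.39, and Fdps, which makes farnesyl diphosphate, of -0.12 and -0.32. The difference of the responses of Fdps, -0.20, was within its software error of 0.289. The median response of the 5 genes was -0.06 in wild type and -0.39 in Mfp2-/-. None reached 2-fold in either genotype.

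Squalene formation and ring closure followed no single order. Fdft1, squalene synthase, had responses of 0.22 in wild type and 0.43 in Mfp2-/-, while a second probe of the same transcript had 0.20 in both. Sqle, squalene epoxidase, a rate-limiting enzyme, had -0.21 and -0.49. Lss, which closes the rings to lanosterol, had 0.57 and 0.37, but its 3 probes for the same transcript disagreed. The others gave 0.44 and 0.96, and -0.78 and -1.35, so the array gives no single direction for Lss.

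Among the 9 genes that turn lanosterol into cholesterol, Tm7sf2 and Lbr encode sterol reductases that can do the same step, and both were lower with LPS. Tm7sf2 stood at 0.69 and -0.05 in wild type without and with LPS and at 1.68 and 0.00 in Mfp2-/-. On this probe untreated Mfp2-/- cells were the highest of the 4, and with LPS the genotypes were level. With LPS it was 1.67-fold lower in wild type and 3.21-fold lower in Mfp2-/- (-0.74 and -1.68). This probe lies on chromosome 19, 6062882 to 6062941 in mm9. The second Tm7sf2 probe was also lower with LPS, by -1.02 and -1.09, but with a difference of the responses of -0.08 against -0.94 on the first, and it was higher in the knockout in both conditions (0.61 without and 0.54 with LPS). With probes averaged the genotype difference with LPS was 0.29 in place of 0.05. Lbr stood at 5.70 and 4.62 in wild type and at 5.67 and 4.72 in Mfp2-/-, so that both untreated arrays were high, both LPS arrays low, and the genotypes within 0.10 of each other.

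Of the other steps, Ebp, the sterol isomerase, had responses of -0.43 in wild type and -0.86 in Mfp2-/-, and Dhcr7, which makes cholesterol from its immediate precursor, of -0.65 and -0.57. A second Ebp probe had -0.57 in both genotypes. Hsd17b7, the sterol ketone reductase, was higher with LPS, by 0.50 and 0.74. A second probe of its transcript gave 0.65 and 0.64, while a probe designed to another transcript gave -0.51 and -0.33. Nsdhl, the decarboxylating sterol dehydrogenase, had 0.08 and -0.38, and -0.03 and -0.24 on a second probe. Cyp51, the lanosterol demethylase, had 0.01 and -0.20, but a second probe of the same transcript gave 0.17 and 0.05. Msmo1, the methyl sterol oxidase, had 0.21 and 0.32. Sc5d, the sterol desaturase, had 0.44 and 0.24 on the reported probe and -1.05 and -1.56 on a second one, designed to another transcript model. Over the 9 genes the median response was 0.01 in wild type and -0.38 in Mfp2-/-.

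**Figure D2:**
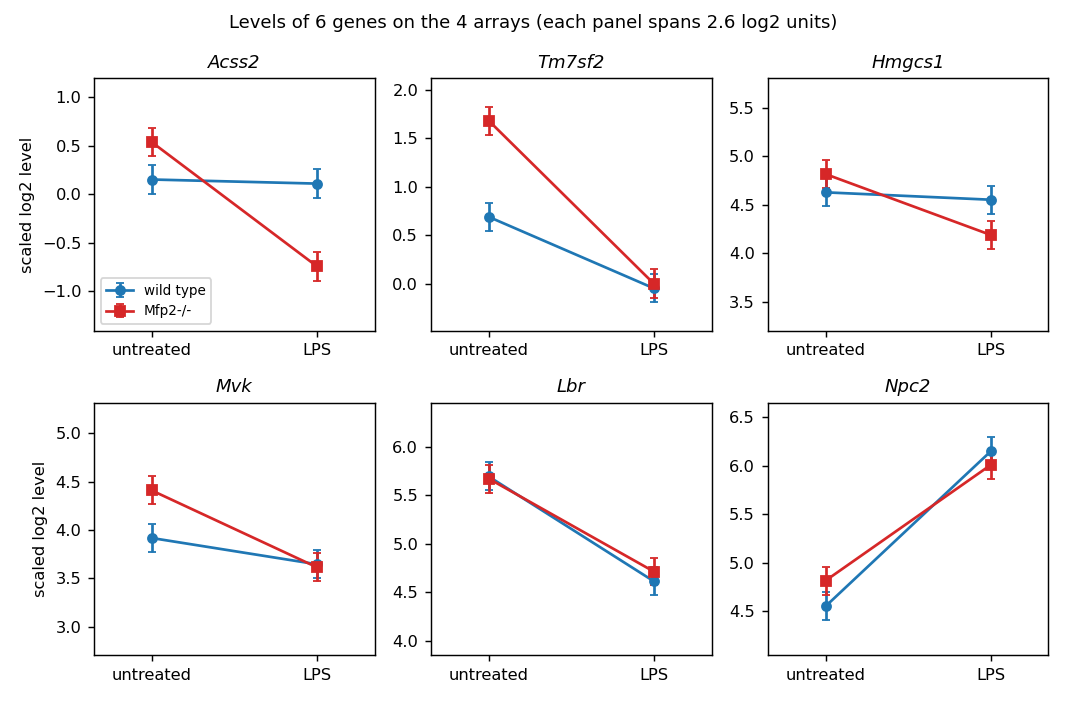
Scaled log2 levels (vertical axis) of 6 genes without and with LPS (horizontal axis), wild type as circles and Mfp2-/- as squares, 1 array per point, bars the scanner software's error of a spot. Acss2 ends at -0.74 in Mfp2-/- with LPS against 0.11 in wild type, and Tm7sf2 starts at 1.68 against 0.69. The Lbr lines run close together, and the Npc2 lines cross, from 4.55 to 6.15 in wild type and from 4.82 to 6.01 in Mfp2-/-.

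The genes that sense sterols differed in both directions. Insig1, a target of SREBP that holds SCAP back, stood at -0.52 and 0.10 in wild type without and with LPS and at -0.14 and 0.58 in Mfp2-/-. Both LPS arrays were above both untreated arrays, with responses of 0.62 and 0.71. Srebf2, which encodes SREBP-2, had 0.18 and 0.53, and its second probe 0.02 and 0.00 in size. Scap had -0.31 and -0.42, and Insig2, the second retention protein, -0.24 and -0.25. Of 2 other Insig2 probes, 1 gave 0.10 and 0.43. The response of Mfp2-/- lay below that of wild type in 2 of the 4, by at most 0.11.

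In trafficking and storage, Npc2 stood at 4.55 and 6.15 in wild type without and with LPS and at 4.82 and 6.01 in Mfp2-/-. Both LPS arrays lay above both untreated arrays, with responses of 1.60 and 1.19, and its only probe lies on chromosome 12, 86097947 to 86098006 in mm9. Npc1, the membrane protein that takes cholesterol from NPC2, had 0.55 and 0.32. Another Npc1 probe above background on all arrays gave 0.44 and -0.14, and with probes averaged the response in Mfp2-/- was 0.10. Soat1, which makes cholesterol esters, had 0.61 and 0.49, and its 4 probes above background on all arrays spread from -0.27 to 0.61 in wild type and from -0.68 to 0.80 in Mfp2-/-. Stard4, a cytosolic carrier of cholesterol, went from 1.86 to 0.98 in wild type and from 2.01 to 0.99 in Mfp2-/-, but a second probe of the same transcript gave 0.64 and 0.79 in the other direction.

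**Figure D3:**
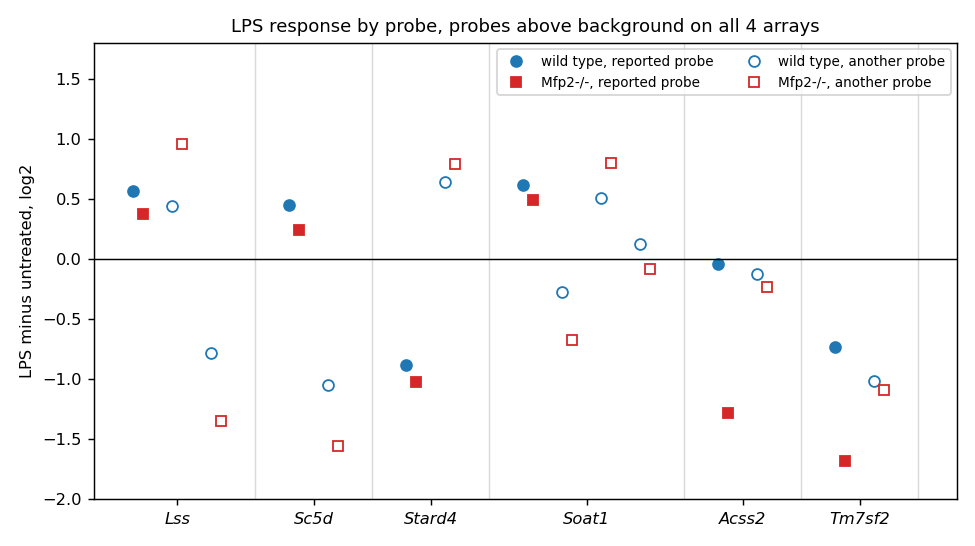
LPS minus untreated (vertical axis, log2) for each probe above background on all 4 arrays of 6 genes (horizontal axis), circles for wild type and squares for Mfp2-/-, filled for the probe reported and open for the others. Probes of Lss, Sc5d, Stard4 and Soat1 lie on both sides of 0, while both Tm7sf2 probes lie below 0 in both genotypes.

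How far other probes bear out a direction can be counted. The 27 genes had 57 probes, 51 of them above background on all 4 arrays, which leaves 24 besides those reported. Of the 24, 15 (62.5%) had the sign of the reported probe for the response in wild type and 14 (58.3%) for that in Mfp2-/-. Among all genes, 8081 such probes gave 75.8% and 74.6%. With each gene taken as the mean of its probes in place of 1 probe, the count at least 2-fold lower with LPS in Mfp2-/- was 1 of 27 in place of 3. Centred on spike-in RNA, which put the median response of all genes at -0.20 in both genotypes, it was 6, and 0 were at least 2-fold higher. In that scaling 8 of 27 lay above 0 in wild type and 10 in Mfp2-/-; counted against the median of all genes, the numbers above it stayed at 12 and 10.

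A single fit over all 4 arrays (limma, genotype plus LPS, Benjamini-Hochberg over 17365 genes, called at an adjusted p under 0.05) tested the part of the LPS response that both genotypes share. It has 1 residual degree of freedom and takes the difference between the responses as noise. Of the 27 genes, 3 passed for LPS. Npc2 rose by 1.40 ± 0.167 (log2, SE; limma adjusted p = 0.0322) and Lbr fell by 1.02 ± 0.125 (limma adjusted p = 0.0327). Stard4 fell by 0.95 ± 0.126 (limma adjusted p = 0.0348) on the reported probe, with a limma adjusted p of 0.503 when its probes were averaged. That is 1 of 27 higher, against 11.3% of all genes, and 2 of 27 lower, against 11.3%. Insig1, Dhcr7, Hsd17b7, Soat1, Tm7sf2, Ebp and Lss did not pass here, with limma adjusted p between 0.0513 and 0.0949. All of these 7 passed with a trended prior or with normexp background correction, each of which called 10 of the 27, against 37.1% and 35.2% of all genes. With probes averaged, only Lbr and Npc2 passed, 2 of 27 against 17.1% of all genes. The limma adjusted p was then 0.852 for Lss, 0.338 for Soat1 and 0.205 for Hsd17b7. For genotype, 0 of 27 passed, against 0% of all genes; at an unadjusted p under 0.05, limma gave 1 of 27 and 1708 of 17365 genes (9.84%).

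The second question was how the genotypes differ. Without LPS nearly all genes of the pathway were slightly higher in Mfp2-/- cells: 24 of 27 lay above 0, against 59.0% of 18400 genes, with a median of 0.24 against 0.05 among 16407 measured genes. Of the 27, 23 lay above that median. By more than the software error of a difference, 15 lay above 0 and 1 below. No gene reached 2-fold in either direction, against 3.08% higher and 3.90% lower among all. Tm7sf2, at 1.99-fold, was the 1 of 27 at least 1.5-fold higher, against 7.32%, and 0 were 1.5-fold lower, against 7.45%. Pmvk (0.52), Mvd (0.50), Mvk (0.49), Acss2 (0.39) and Insig1 (0.38) followed. On the low side were Hsd17b7 (-0.28), Idi1 (-0.10) and Lbr (-0.02). By step, the median was 0.49 from mevalonate to isoprenoids, 0.29 in the 2 genes of the first steps, 0.28 in sterol conversion, 0.24 in squalene and ring closure, 0.20 in SREBP control and 0.16 in trafficking and storage. Of the 24 other probes, 16 had the sign of the reported one (66.7%), against 68.1% among all genes.

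With LPS that shift was not seen: 15 of 27 lay above 0, against 55.8% of 17727 genes, and the median was 0.03 against 0.05 among 16102 measured genes. Centred on each array's median the number above 0 was 24, but that scaling put the median of all genes at 0.22. In either scaling 12 of 27 were above the median of all genes. The arrays of this comparison are not shared with the untreated one. No gene reached 2-fold, against 1.86% higher and 4.39% lower among all. At 1.5-fold, 0 were higher, against 6.24%, and 1 was lower, Acss2 at -0.85, against 9.62%. The second Acss2 probe above background on all arrays went the other way, at 0.22, and with probes averaged Acss2 was at -0.32. Idi1 (-0.45) and Hmgcs1 (-0.36) were the next lowest. Insig1 (0.48), Srebf2 (0.37) and Dhcr7 (0.37) were the highest. Insig1 and Dhcr7 were also higher without LPS (0.38 and 0.30), and all 4 genes of SREBP control lay above 0 in both conditions on the reported probes. Srebf2 did not hold that sign: its second probe gave -0.05 and -0.08, and normexp background correction -0.08 and -0.04. The sign was the same in both conditions in 16 of 27 genes (59.3%), against 62.1% of 15516 genes.

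**Figure D4:**
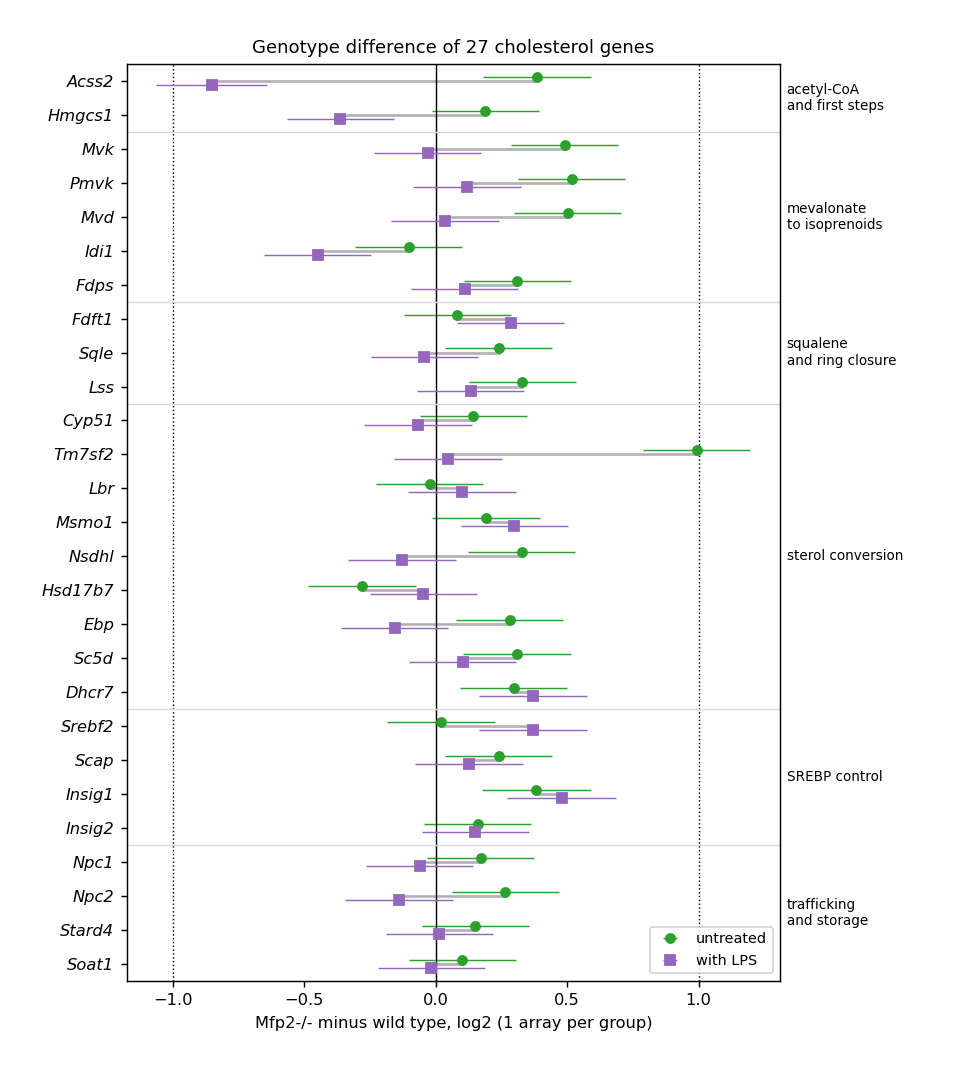
Mfp2-/- minus wild type for the 27 genes (horizontal axis, log2; vertical axis, genes grouped by step), untreated as circles and with LPS as squares, 1 array per group. Bars are the scanner software's error of a difference and dotted lines mark 2-fold; 24 circles and 15 squares lie to the right of 0.

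The difference between the LPS responses, knockout minus wild type, uses all 4 arrays, the untreated ones included, so it is not separate from the untreated difference above. It was below 0 in 20 of 27 genes and above 0 in 7, against 50.4% of 15516 genes above 0, and its median was -0.21 against 0.00 among all. The software error of this difference was between 0.289 and 0.294 log2, and 10 genes lay below 0 and 1 above 0 by more than it. Only Acss2 passed 2-fold (-1.24), 1 of 27 against 2.91%, and 0 were 2-fold higher, against 1.69%. At 1.5-fold, Acss2 and Tm7sf2 (-0.94) were lower, 2 of 27 against 8.25%, and 0 were higher, against 5.72%. Each of the 2 rests on its reported probe: with probes averaged the difference was -0.67 for Acss2 and -0.51 for Tm7sf2, and 0 of 27 passed 2-fold. Hmgcs1 (-0.55), Mvk (-0.52), Mvd (-0.47), Nsdhl (-0.46), Ebp (-0.44), Npc2 (-0.40), Pmvk (-0.40) and Idi1 (-0.35) came next on the reported probes. Second probes gave -0.88 for Hmgcs1, -0.25 for Mvk, -0.21 for Nsdhl, -0.33 for Pmvk and -0.003 for Ebp. Mvd, Npc2 and Idi1 had 1 probe each. Srebf2 (0.35), Hsd17b7 (0.23) and Fdft1 (0.20) lay highest on the reported probes. With normexp background correction Srebf2 was at 0.04 and Hsd17b7 at 0.06, and the second probes of Srebf2 and Fdft1 gave -0.03 and 0.00.

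**Figure D5:**
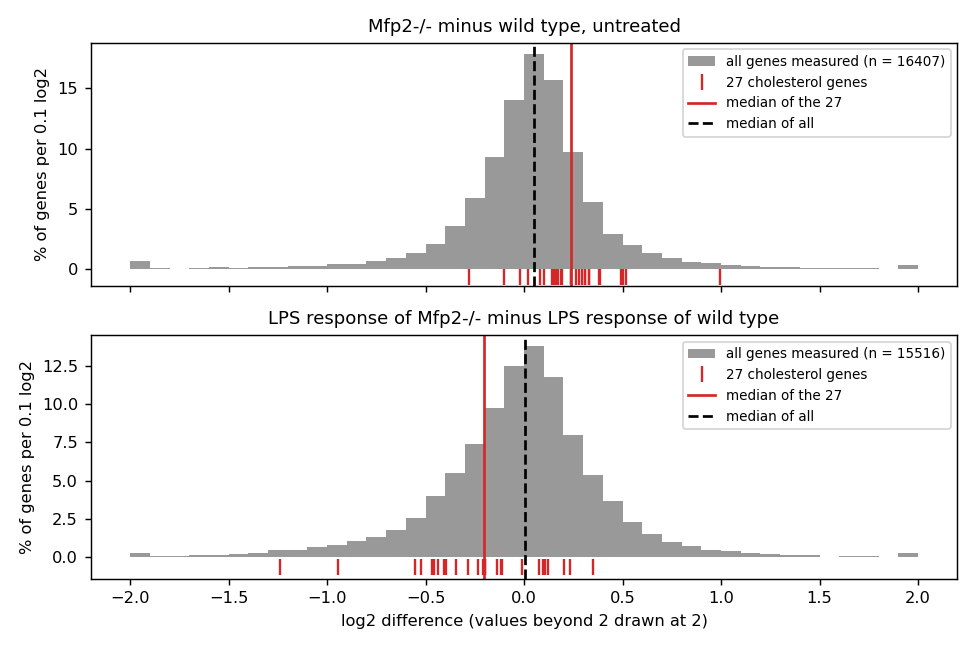
Share of all measured genes (vertical axis, percent per 0.1 log2) by untreated genotype difference (upper panel, n = 16407) and by difference of the LPS responses (lower panel, n = 15516), with the 27 genes as ticks, medians as lines (solid for the 27, dashed for all) and values beyond 2 drawn at 2. The 27 have a median of 0.24 against 0.05 in the upper panel and of -0.21 against 0.00 in the lower, and their ticks lie inside the spread of all genes.

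Genes around the pathway, 65 in 7 lists chosen by function, were measured in the same way. Without LPS, 36 of the 61 compared lay above 0 in Mfp2-/- minus wild type, against 59.0% of all genes. Their median was 0.07, and 0 reached 2-fold. In the LPS responses, 8 were at least 2-fold higher and 5 lower among 62 compared in wild type, and 10 higher and 8 lower in Mfp2-/-. The shares of all genes were 9.71% and 8.58% in wild type and 11.0% and 12.5% in Mfp2-/-, the background for the single lists too. Por, which passes electrons to Cyp51 and Sqle, was higher by 1.49 and 1.57.

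In the isoprenoid branch, which uses farnesyl diphosphate for other ends, 1 of 12 genes was at least 2-fold higher in wild type and 2 in Mfp2-/-, and 0 were lower in either. Nus1, a subunit of the enzyme that makes dolichol precursors, had 1.14 and 1.44. Ggps1, which makes geranylgeranyl diphosphate, had 0.75 and 1.03, and all 5 of its other probes were higher too. The median difference of the responses in this branch was 0.26, on the other side of 0 from the -0.40 of the 5 genes that supply it. Among 11 further genes of SREBP control and sterol-regulated degradation, 0 reached 2-fold in either genotype. Srebf1, which encodes SREBP-1, had -0.10 and -0.28.

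For uptake, Lrp8 had -1.62 and -1.28, with 2 of 3 other probes lower, and Scarb1, a receptor of high-density lipoprotein, -0.66 and -0.88. Of 8 uptake genes compared, 1 was at least 2-fold lower in wild type and 2 in Mfp2-/-, and 0 were higher. Vldlr was not well above background on any array.

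Of 17 genes of lysosomal and other sterol transport, 4 were at least 2-fold higher in each genotype, and 2 were lower in wild type and 3 in Mfp2-/-. Gramd1a, an endoplasmic reticulum protein that carries cholesterol from the plasma membrane, had 1.59 and 2.05, and its second probe was higher too. Osbpl10 and Osbpl1a, of the oxysterol-binding protein family, had -2.12 and -1.64, and -1.39 and -1.50. Lipa, the lysosomal esterase upstream of Npc2, had -0.25 and -0.11. In ester storage, Soat2, the relative of Soat1, went from -0.71 to 0.91 in wild type and from -0.91 to 1.88 in Mfp2-/-. It was the 1 gene of the 59 above background on all 4 arrays whose responses differed by at least 2-fold (1.17, higher in the knockout). Among oxysterol genes, Ch25h, which makes the oxysterol that blocks SREBP processing, was well above background on the LPS arrays alone. It was at least 1.21-fold higher with LPS in wild type and at least 3.0-fold in Mfp2-/-, where the untreated array was set to the lowest signal well above background. Cyp27a1, the mitochondrial sterol oxidase, was above background on the untreated arrays alone, at least 2.35-fold lower with LPS in wild type and at least 4.39-fold lower in Mfp2-/-.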

How the data were processed

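Cy3-labelled RNA of 4 RAW264.7 samples was hybridised to Agilent mouse arrays of design 074809, 1 array per group. The authors' scanner files give spot intensity; per the file headers the software was Feature Extraction 10.7.1.1, although the submitters' processing notes name version 9.5.1.1. Per the file headers that software took off the background and evened out trends across each array, and it applied no scaling between arrays. The deposited flags, a unit of type other, give spots well above background, saturated or outlying. The deposited series table holds intensity too. On each array all 56605 of its values came within 0.01 log2 of probe means that were quantile normalized on the linear scale, and it served as an alternative.

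Control and outlier spots (between 90 and 149 per array) were left out, spots of a probe averaged, and log2 signals scaled to each array's 75th percentile, which lay between 303 and 370 before scaling. A gene took the probe with values on all arrays that was above background and brightest. Probes were named by RefSeq accession where it matched (32994 of 56605). Levels of different probes were not compared. The members, lists and rules were chosen with earlier results of these data known. Named members are all 27 with a probe; named pathway genes are up to 4 per list with the largest difference and a few key genes. Calls, bounds and the additive fit (limma 3.58.1 in R 4.3.3, genes above background on at least 2 arrays, prior SD 0.147) were tested on simulated data. Python 3.11.15 with numpy 2.4.6, pandas 2.3.3 and matplotlib 3.10.9 did the rest. Alternatives were normexp (offset 50), quantile normalization, spike-in centring on 7 probes, median centring, the series table, stricter and no filters on dim probes, means of probes and a trended prior. A few pathway genes named by this rule are left out of the text. The number of arrays limits the precision.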

Additional observations from a re-analysis of the deposited data

How the results depend on the processing

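With 1 array per group no replicate could be left out, and with 1 slide no slide block could be fitted; no paired analysis was possible because each group has 1 array. Medians count as moved past the spread of replicate spots, counts past 1.5 times. With spike-in centring the median response of the 27 genes was -0.26 in wild type and -0.55 in Mfp2-/-, with 2 genes at least 2-fold lower in wild type, and 6 lower and 0 higher in Mfp2-/-. With median centring the median was -0.18 for the response of Mfp2-/-, -0.087 for the difference of the responses and 0.20 for the genotype difference with LPS, and 1 gene (Tm7sf2, 1.04) was at least 2-fold higher in untreated Mfp2-/-. These centrings add a constant to every gene, and the median of the 27 minus that of all genes was -0.36 for the response of Mfp2-/- under both. Quantile normalization and the series table each gave 5 genes at least 2-fold lower with LPS in Mfp2-/-, and the mean of probes gave 1, and 0 in place of 1 for the difference of the responses. The additive fit called 10 of the 27 for LPS with normexp and with a trended prior and 8 with the stricter filter, against 3; these settings called 35.2%, 37.1% and 34.1% of all genes, against 22.6%, and the cause was not tested. The other 116 medians, 2-fold counts and counts of the fit kept within these limits. Of single genes and 1.5-fold counts, 74 values moved and 174 did not: in Mfp2-/- the genes at least 1.5-fold lower with LPS went from 7 to 13 with spike-in centring, and those higher from 3 to 1 with spike-in centring or normexp and to 5 with median centring. In wild type those higher went from 3 to 1 with spike-in centring, and with LPS 1 gene in place of 0 was 1.5-fold higher in Mfp2-/- with median centring. The untreated genotype median stayed between 0.18 and 0.29.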
